A study of Mus musculus with 12 samples.

Results

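Receptors that let macrophages, monocytes and neutrophils sense antibody-coated particles, microbes and dead cells were followed in mouse colon through 10 genes. The genes were Lilrb4a, Fcgr1, Fcgr2b, Fcgr3, Fcgr4, Fcer1g, Trem1, Trem2, Clec4d and Clec4e, out of 21314 genes with a probe set of their own symbol, and each of the 10 was measured by 1 probe set. They were chosen by name with values of these arrays in view, namely a high Lilrb4a in wild-type mice given dextran sulfate sodium (DSS) and a low Fcgr4 in Parp1-/- mice. The wild-type DSS comparison and both genotype comparisons are therefore given as descriptions. Counts of these genes, past limma's threshold or by direction, and their medians are printed there beside those of all genes. The choice used values of these comparisons, so nothing is read from such counts and medians. The p-values of these 10 genes are given only for DSS against water within Parp1-/- mice. The differences in that comparison share no array with the wild-type values behind the choice, but the low Fcgr4 in Parp1-/- came from its arrays. The spread used in its test was estimated from all 12 arrays, the wild-type ones included.

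DSS is a polymer that injures the colon epithelium and is used as a model of colitis. RNA of the whole colon was hybridised to Affymetrix arrays from 4 groups of 3 mice aged 6 to 8 weeks: wild-type mice on plain water, wild-type mice given DSS at 4% in the water over 7 days, and Parp1-/- mice, which lack the DNA damage sensor poly(ADP-ribose) polymerase 1, on the same water or DSS. The sources used here name no allele, strain or sex. The whole colon mixes epithelium, muscle and blood-derived cells, so fewer cells of a type and less RNA per cell cannot be told apart. Values were taken as log2 values, although the log base is not stated, from which the 12-array median of the probe set had been taken, so 0 is that median, a difference of 1 is a 2-fold change in base 2, and a level says nothing about the level of another gene. For the same reason the presence of colon or myeloid markers could not be judged, only their differences between arrays.

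Activating Fc gamma receptors bind the constant part of IgG and carry no signalling motif of their own in most cases. They sit in the membrane with the common gamma chain encoded by Fcer1g, whose tyrosine motif (ITAM) recruits the kinase Syk, and the lectin receptors of Clec4d and Clec4e use the same chain. Trem1 and Trem2 use another adaptor, encoded by Tyrobp. Fcgr2b and Lilrb4a carry inhibitory motifs (ITIM) that recruit phosphatases and restrain these signals.

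Some arrays stood apart before any comparison. Parp1 itself was −0.41 in the array labelled wild-type water 1, below all 6 Parp1-/- arrays, which ran from −0.22 to 0.03, while the other 5 wild-type arrays ran from 0.01 to 1.15. The 1058 olfactory and vomeronasal receptor genes, which a colon would hardly express, had a median of 0.38 to 0.42 in the 3 wild-type water arrays and wild-type DSS 1 and of −0.12 to 0.05 in the other 8. A list of 16 measured housekeeping genes averaged −1.75 to −0.90 in the same 4 arrays and −0.01 to 0.42 in the others. A list of 14 smooth muscle genes averaged 2.66 to 2.69 in Parp1-/- water 2 and 3 and Parp1-/- DSS 1 and −0.64 to 0.03 in the other 9.

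Lilrb4a, an inhibitory receptor of the immunoglobulin superfamily on myeloid and mast cells, had the largest span of the 10 genes. It was −0.83, −1.61 and −1.88 in wild-type water mice 1 to 3, and 2.87, 3.66 and 1.76 in the wild-type DSS mice. On the Parp1-/- arrays it was −1.33, −0.12 and −0.48 on water and 0.12, 3.39 and 0.56 on DSS. Every DSS mouse lay above every water mouse of its genotype, but among Parp1-/- DSS mice only mouse 2 reached the wild-type DSS range. The group means ran, from the highest, wild-type DSS (2.76 ± 0.96, SD, n = 3), Parp1-/- DSS (1.36 ± 1.78), Parp1-/- water (−0.64 ± 0.62) and wild-type water (−1.44 ± 0.55), and neighbours overlapped at the first and the last step of that order. DSS minus water was 4.20 ± 0.76 in wild type (SE of the limma model, a fold of 18.4) and 2.0 ± 0.76 in Parp1-/- (a fold of 4.00). Without Parp1-/- DSS 2 the latter was 0.98. After quantile normalization of the arrays the differences were 2.83 in wild type and 2.32 in Parp1-/-. With the housekeeping mean of each array subtracted, the wild-type difference was 3.04.

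**Figure D1:**
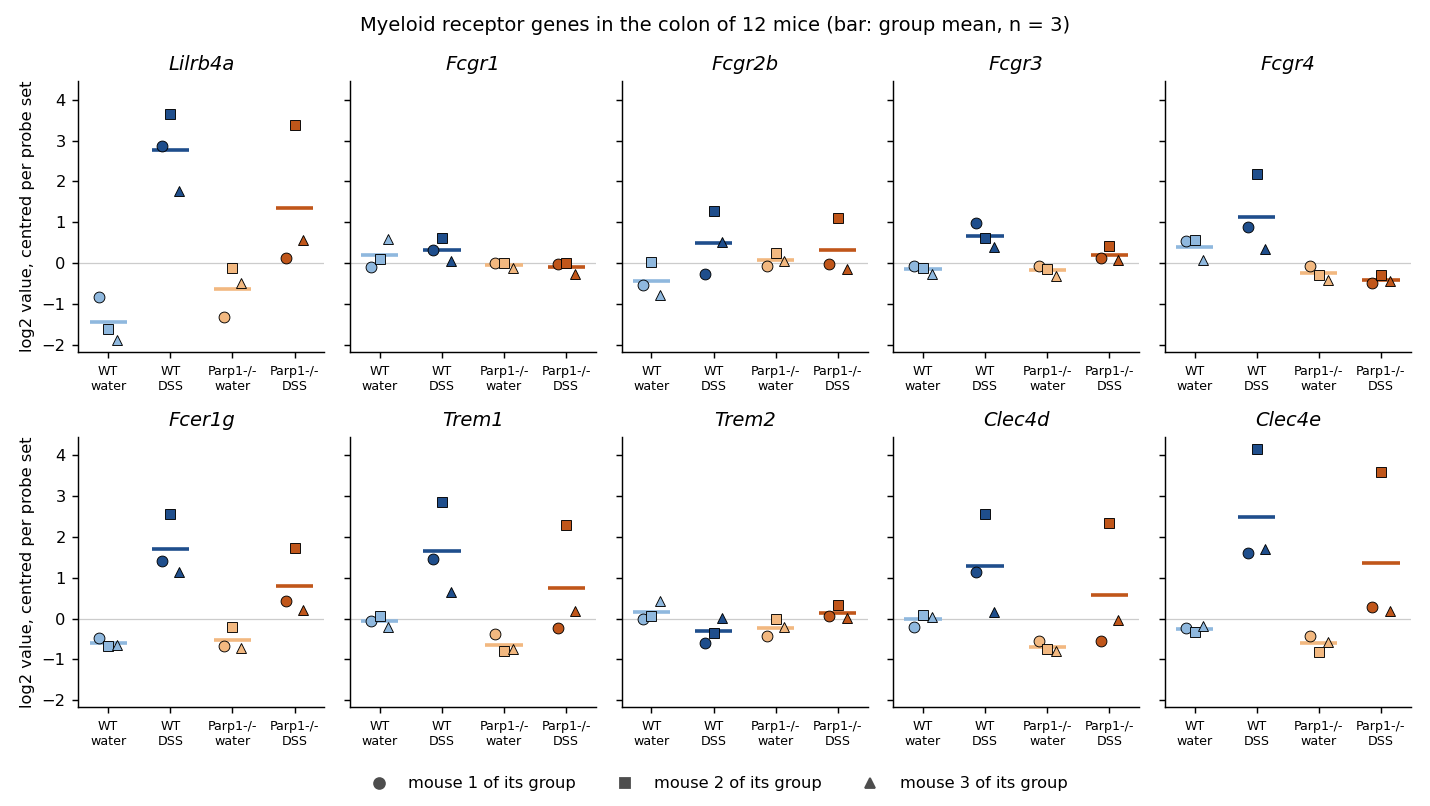
Log2 value, centred per probe set, of each of the 10 receptor genes in the 12 mice, with the 4 groups on the x axis, 1 point per mouse and a bar at the group mean (n = 3). Lilrb4a, Fcer1g, Trem1, Clec4d and Clec4e are highest in mouse 2 of both DSS groups, while Fcgr4 lies below 0 in all 6 Parp1-/- mice and above 0 in all 6 wild-type mice.

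Fcer1g, the signalling chain that several of these receptors share, was −0.48, −0.68 and −0.64 in wild-type water mice and 1.42, 2.55 and 1.15 in wild-type DSS mice. Its values in Parp1-/- mice were −0.68, −0.20 and −0.72 on water and 0.43, 1.74 and 0.20 on DSS. The DSS mice lay above the water mice in both genotypes, and the wild-type DSS mice overlapped the Parp1-/- DSS mice only at Parp1-/- DSS 2. The difference was 2.31 ± 0.41 in wild type, a fold of 4.95, and 1.32 ± 0.41 in Parp1-/-, a fold of 2.50. The former was 1.88 without wild-type DSS 2, and the latter 0.85 without Parp1-/- DSS 2. After quantile normalization the differences were 1.79 in wild type and 1.89 in Parp1-/-. With the housekeeping mean of each array subtracted they were 1.15 in wild type and 1.42 in Parp1-/-.

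The sequences upstream of Clec4e, Clec4d and Trem1 are shown as examples from the genes that moved together from mouse to mouse. Each is the RefSeq stretch from 250 bases before to 50 after the gene's start (GRCm38.p6), printed 5′ to 3′ on the gene's strand, with matches of any of 5 searched motifs in capitals. In these 3 sequences the matches are to GAGGAA (its reverse complement reads TTCCTC), a core that the myeloid factor PU.1 binds, and in Trem1 also to TTCNNNGAA, the GAS element bound by STAT factors. Clec4e lies at chr6:123289822-123290121 (minus strand), Clec4d at chr6:123261857-123262156 (plus strand) and Trem1 at chr17:48232489-48232788 (plus strand).
Clec4e: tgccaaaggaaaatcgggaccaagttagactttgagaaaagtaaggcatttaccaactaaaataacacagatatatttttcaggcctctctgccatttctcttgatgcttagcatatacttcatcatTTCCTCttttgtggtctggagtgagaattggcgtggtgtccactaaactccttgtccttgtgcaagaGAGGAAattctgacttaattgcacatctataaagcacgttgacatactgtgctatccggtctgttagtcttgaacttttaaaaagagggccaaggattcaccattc
Clec4d: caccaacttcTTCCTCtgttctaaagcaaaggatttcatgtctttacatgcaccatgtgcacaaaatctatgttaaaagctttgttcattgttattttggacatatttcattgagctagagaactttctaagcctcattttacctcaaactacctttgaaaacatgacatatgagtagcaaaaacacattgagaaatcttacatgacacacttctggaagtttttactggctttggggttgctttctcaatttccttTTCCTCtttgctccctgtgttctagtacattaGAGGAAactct
Trem1: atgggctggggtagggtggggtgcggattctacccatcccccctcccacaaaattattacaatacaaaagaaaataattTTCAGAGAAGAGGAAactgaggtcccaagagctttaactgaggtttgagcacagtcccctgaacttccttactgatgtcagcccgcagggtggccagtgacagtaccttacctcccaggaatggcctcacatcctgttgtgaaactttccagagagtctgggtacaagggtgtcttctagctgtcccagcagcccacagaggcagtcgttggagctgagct
In Trem1 the 2 motifs stand side by side and read TTCAGAGAA at −171 and GAGGAA at −162 from the gene's start. Clec4e holds the PU.1 core at −123 and −56, and Clec4d at −240, 8 and 40. Lilrb4a and Fcer1g moved together with these 3 genes. The pairs among all 5 had Pearson correlations of 0.82 to 0.98 over the 12 arrays. The same stretch of Fcer1g, not printed, holds no PU.1 core, and no promoter of Lilrb4a was found. The part of the motif in the shared movement was not tested.

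Clec4e encodes Mincle, a lectin receptor for glycolipids and for a protein released by dying cells. It was −0.24, −0.32 and −0.18 in wild-type water mice and 1.61, 4.16 and 1.70 in wild-type DSS mice. Its Parp1-/- values were −0.43, −0.83 and −0.57 on water and 0.28, 3.60 and 0.18 on DSS. All 6 DSS mice lay above all 6 water mice, and Parp1-/- DSS 1 and 3 lay below every wild-type DSS mouse. DSS minus water was 2.74 ± 0.84 in wild type, a fold of 6.67, and 1.96 ± 0.84 in Parp1-/-, a fold of 3.89. The latter was 0.84 without Parp1-/- DSS 2. With the housekeeping mean of each array subtracted, the differences were 1.58 in wild type and 2.06 in Parp1-/-. Clec4d, its neighbour on chromosome 6, encodes a related lectin receptor that can pair with Mincle. It was −0.20, 0.09 and 0.04, then 1.14, 2.56 and 0.16, in wild-type water and DSS mice. On Parp1-/- arrays it was −0.56, −0.76 and −0.80 in water and −0.55, 2.34 and −0.04 in DSS. The groups were separate in both genotypes, narrowly so in mouse 3 of wild-type DSS and mouse 1 of Parp1-/- DSS. The differences were 1.31 ± 0.69 in wild type and 1.29 ± 0.69 in Parp1-/-. The former was 0.67 without wild-type DSS 2, and the latter 0.41 without Parp1-/- DSS 2. With the housekeeping mean subtracted, the Clec4d differences were 0.15 in wild type and 1.38 in Parp1-/-.

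Trem1, which amplifies inflammatory signals of neutrophils and monocytes, was −0.05, 0.05 and −0.21 in wild-type water mice and 1.47, 2.85 and 0.65 in wild-type DSS mice. Its Parp1-/- values were −0.39, −0.79 and −0.74 on water and −0.23, 2.29 and 0.18 on DSS. The groups were again separate in both genotypes, with mouse 2 the highest of each DSS group. The differences were 1.73 ± 0.62 in wild type, a fold of 3.31, and 1.38 ± 0.62 in Parp1-/-, a fold of 2.61. The former was 1.13 without wild-type DSS 2, and the latter 0.61 without Parp1-/- DSS 2. With the housekeeping mean of each array subtracted, the differences were 0.57 in wild type and 1.48 in Parp1-/-.

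Trem2, a lipid receptor of tissue macrophages known for restraining inflammation and promoting uptake of debris, went another way. It was −0.02, 0.05 and 0.44 in wild-type water mice and −0.60, −0.35 and 0.01 in wild-type DSS mice, groups that overlapped. The Parp1-/- mice had −0.44, −0.01 and −0.22 on water and 0.05, 0.33 and 0.02 on DSS, with no overlap. The differences were −0.47 ± 0.20 in wild type and 0.36 ± 0.20 in Parp1-/-, and the response in Parp1-/- minus that in wild type was 0.83 ± 0.29. In DSS, all 3 Parp1-/- mice lay above all 3 wild-type mice, by as little as 0.02 against 0.01 at the nearest pair.

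Fcgr3, the low-affinity activating receptor for IgG, was −0.06, −0.12 and −0.27 in wild-type water mice and 0.97, 0.61 and 0.38 in wild-type DSS mice. Its Parp1-/- values were −0.07, −0.15 and −0.31 on water and 0.12, 0.41 and 0.06 on DSS. DSS and water mice did not overlap in either genotype, and the differences were 0.81 ± 0.18 (a fold of 1.75) and 0.37 ± 0.18 (a fold of 1.30). The wild-type difference turned to −0.36 when each array's housekeeping mean was subtracted. Fcgr2b, the inhibitory IgG receptor of myeloid and B cells, was −0.54, 0.04 and −0.78 in wild-type water mice and −0.28, 1.28 and 0.51 in wild-type DSS mice. It was −0.08, 0.25 and 0.04 in Parp1-/- water mice and −0.04, 1.11 and −0.14 in Parp1-/- DSS mice. DSS and water mice overlapped in both genotypes. The differences were 0.93 ± 0.41 in wild type, 0.54 without wild-type DSS 2 and −0.23 with the housekeeping mean subtracted. In Parp1-/- the difference was 0.24 ± 0.41, −0.16 without Parp1-/- DSS 2.

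Fcgr1, the high-affinity IgG receptor of monocytes and macrophages, moved least. It was −0.11, 0.10 and 0.59 in wild-type water mice, 0.31, 0.62 and 0.05 in wild-type DSS mice, between −0.13 and 0.00 in Parp1-/- water mice and between −0.26 and −0.01 in Parp1-/- DSS mice. DSS and water mice overlapped in both genotypes. DSS minus water was 0.13 ± 0.21 in wild type, −0.016 to 0.33 with single mice left out (below 0 without wild-type water 1 or DSS 2) and −1.03 with the housekeeping mean subtracted. It was −0.06 ± 0.21 in Parp1-/-, 0.04 with that mean subtracted. Under DSS all 3 Parp1-/- mice lay below all 3 wild-type mice, a difference of −0.43 ± 0.21, or −0.28 without wild-type DSS 2.

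**Figure D2:**
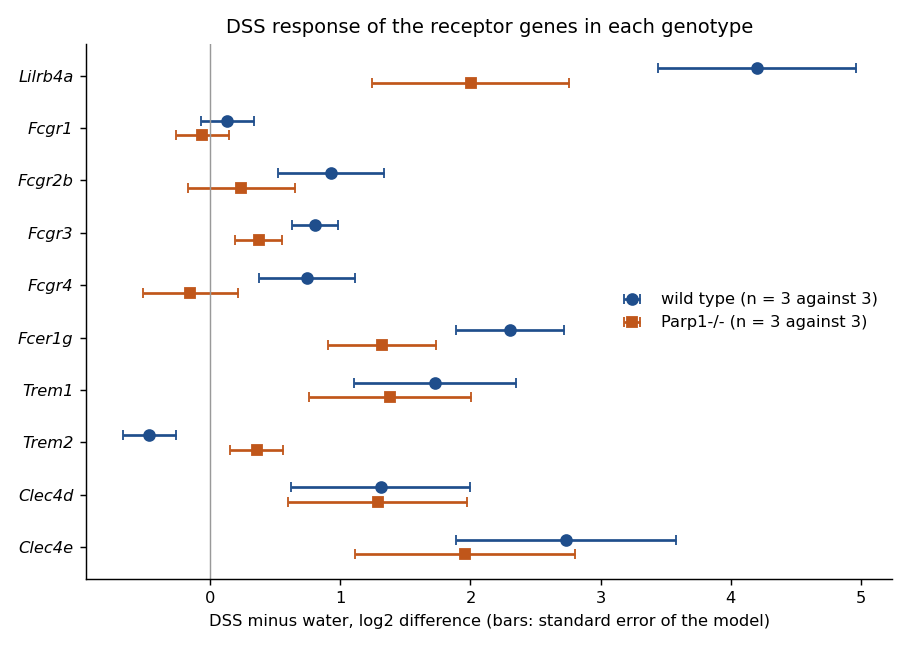
DSS minus water (log2 difference on the x axis) for each of the 10 genes, wild type as circles and Parp1-/- as squares, with bars at 1 standard error of the limma model (3 mice against 3). Lilrb4a and Clec4e have the largest differences in both genotypes, and Trem2 lies below 0 in wild type and above 0 in Parp1-/-.

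Within Parp1-/- mice, where limma's test was applied, none of the 10 genes changed at an adjusted p under 0.05, and the adjusted p was 1.0 for each. Only 2 of all 21314 genes, 0.00938%, were called in that comparison. At an unadjusted p under 0.05, with no correction over genes, 4 of the 10 were found and 2.86% of all genes. With single mice left out the 4 became 1 (without Parp1-/- water 1 or DSS 2), 2 (without water 2 or 3), 4 (without DSS 3) or 5 (without DSS 1). Limma gave an unadjusted p of 0.00829 for Fcer1g, 0.0226 for Lilrb4a, 0.0398 for Clec4e and 0.0468 for Trem1, each with a difference above 0 and with every DSS mouse above every water mouse. The Parp1-/- DSS groups lay wholly above the water groups for 7 of the 10 genes, against 7.82% of all genes higher in the same way. These 7 were Lilrb4a, Fcer1g, Fcgr3, Trem1, Trem2, Clec4d and Clec4e. The median difference was 0.83 over the 10 genes and 0.01 over all genes. Parp1-/- DSS 2 was the highest mouse of its group for all 10 genes. Parp1-/- DSS 1 and Parp1-/- water 2 and 3 were the arrays high in smooth muscle genes. Without these 3, which leaves 1 water mouse assumed to vary like the other groups, no gene of the 10 was called and 2 had an unadjusted p under 0.05 (limma). Differences then moved from 2.0 to 3.31 for Lilrb4a, from 0.36 to 0.61 for Trem2 and from 0.24 to 0.57 for Fcgr2b.

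In wild type, where values of the comparison had chosen genes, 3 of the 10 (Lilrb4a, Fcer1g and Fcgr3) had a higher value on DSS at an adjusted p under 0.05, as did 8.89% of all genes. Lilrb4a is among them by the choice of genes. The count was 0 after quantile normalization of the arrays and 5 without wild-type DSS 1, whose housekeeping mean was −0.90. Fcgr3 was not called with only the groups compared or without the 3 arrays high in smooth muscle genes, which left 2. Groups were separate and higher on DSS for 6 of the 10, against 11.4% of all genes. The median difference was 1.12 over the 10 genes and −0.05 over all genes. Wild-type DSS 2 was the highest mouse of its group for 8 of the 10. All 3 water arrays and DSS 1 are those low in housekeeping genes, and their part in the differences was not tested.

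Fcgr4, an activating receptor for IgG2a and IgG2b on monocytes, macrophages and neutrophils, was lower in every Parp1-/- mouse than in any wild-type mouse. It was 0.54, 0.56 and 0.07 in wild-type water mice and 0.88, 2.18 and 0.34 in wild-type DSS mice. The Parp1-/- mice had −0.07, −0.29 and −0.41 on water and −0.49, −0.29 and −0.44 on DSS. The 6 Parp1-/- mice all lay below the 6 wild-type mice, a pattern that chose the gene and that 353 of the 21314 genes (1.66%) showed. Parp1-/- minus wild type was −0.64 ± 0.37 on water and −1.54 ± 0.37 on DSS, a level 2.91-fold lower, and the latter was −1.02 without wild-type DSS 2. DSS minus water was 0.74 ± 0.37 in wild type, 0.22 when its DSS mouse 2 was left out, 1.14 when mouse 3 was, and −0.42 with the housekeeping mean subtracted. It was −0.15 ± 0.37 in Parp1-/-, where limma's unadjusted p was 0.690.

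The 4 arrays with the raised olfactory and vomeronasal receptor median of 0.38 to 0.42 are among the 6 wild-type arrays, with Fcgr4 at 0.54, 0.56, 0.07 and 0.88. In the other 2, wild-type DSS 2 and 3, Fcgr4 was 2.18 and 0.34, above all 6 Parp1-/- arrays, as it was for Fcgr1 and for 4.48% of all genes. Fitted without those 4 arrays, the difference under DSS was −1.67, with wild-type DSS 2 and 3 (2.18 and 0.34) as the only wild-type arrays. After quantile normalization of all arrays the difference was −1.74 under DSS and −0.73 on water. These fits reuse the values that chose Fcgr4. The part of the arrays that stood apart in its difference was not tested.

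Its partner chain did not follow the same pattern. In Parp1-/- DSS 2, Fcer1g was 1.74, Clec4e 3.60 and Trem1 2.29, and Fcgr4 was −0.29, the same as in a Parp1-/- water mouse. In wild-type DSS 2, where Fcer1g was 2.55 and Clec4e 4.16, Fcgr4 was 2.18. Among the 10 genes, Fcgr2b, Fcgr4, Fcgr3 and Fcer1g lie in this order on chromosome 1, on which Parp1 also lies. Other genes between them were not looked at. The part of position on the chromosome in the values was not tested. Fcgr2b, Fcgr3 and Fcer1g overlapped between genotypes both on water and on DSS, with Parp1-/- minus wild type under DSS at −0.19 ± 0.41, −0.46 ± 0.18 and −0.92 ± 0.41. With single mice left out the Fcgr2b difference ran from −0.59 to 0.20, above 0 without wild-type DSS 2 or Parp1-/- DSS 3. That of Fcgr3 was −0.30 without wild-type DSS 1. For Fcer1g it was −0.50 without wild-type DSS 2 and −1.39 without Parp1-/- DSS 2.

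**Figure D3:**
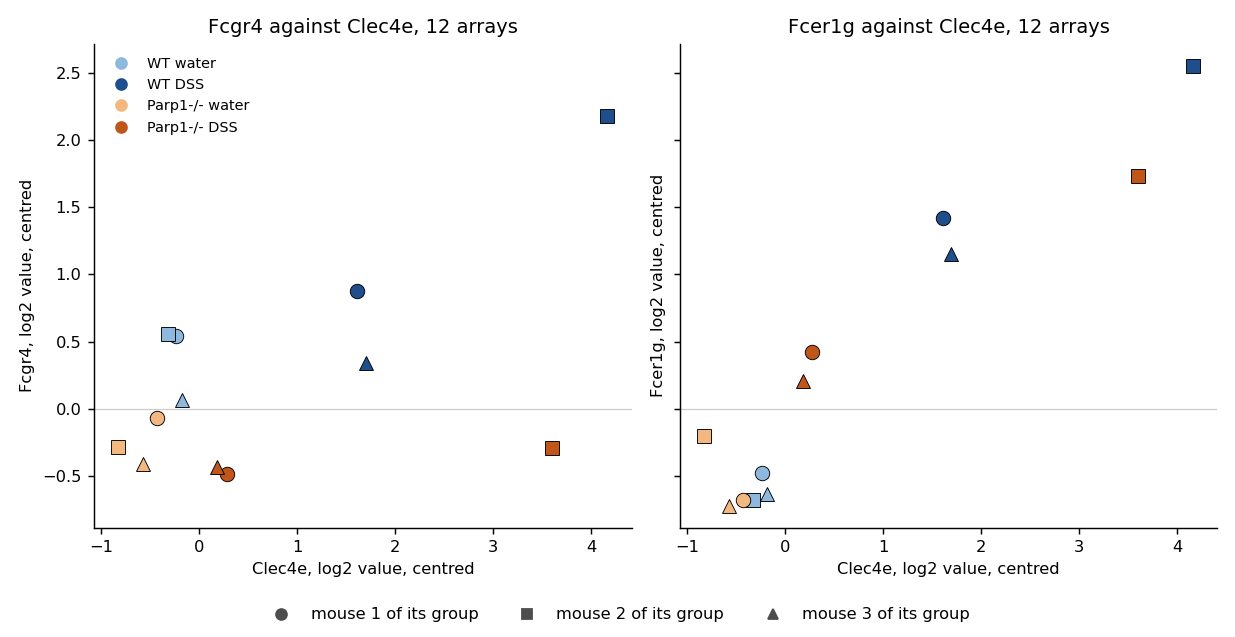
Fcgr4 (left) and Fcer1g (right) on the y axis against Clec4e on the x axis, all as log2 values centred per probe set, 1 point per mouse with the colour giving the group and the shape the mouse. Parp1-/- DSS 2 has Clec4e at 3.60 and Fcer1g at 1.74 but Fcgr4 at −0.29, while wild-type DSS 2 is high in all 3 genes.

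The stretches at the starts of Fcgr4 and Fcgr1, the genes whose Parp1-/- DSS mice all lay below the wild-type DSS mice, are shown for that reason, with capitals as above. Fcgr4 lies at chr1:171018676-171018975 (plus strand) and Fcgr1 at chr3:96293920-96294219 (minus strand).
Fcgr4: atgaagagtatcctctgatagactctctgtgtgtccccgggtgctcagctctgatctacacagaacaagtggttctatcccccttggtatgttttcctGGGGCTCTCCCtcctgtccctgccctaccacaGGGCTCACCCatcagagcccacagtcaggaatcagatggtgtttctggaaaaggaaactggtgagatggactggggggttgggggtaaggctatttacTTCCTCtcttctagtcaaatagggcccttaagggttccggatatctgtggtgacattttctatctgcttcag
Fcgr1: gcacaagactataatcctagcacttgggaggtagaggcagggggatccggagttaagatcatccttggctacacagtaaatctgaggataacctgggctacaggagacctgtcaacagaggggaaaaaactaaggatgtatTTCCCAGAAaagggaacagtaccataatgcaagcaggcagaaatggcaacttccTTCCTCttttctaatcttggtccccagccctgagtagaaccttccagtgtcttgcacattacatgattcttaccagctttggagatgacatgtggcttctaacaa
Fcgr4 has the PU.1 core at −22 and 3 matches to the NF-kappaB consensus at −152, −151 and −120, of which the first and the second overlap. Fcgr1 has a GAS match at −109 and the PU.1 core at −55, the GAS element being the known interferon-gamma response site of this gene in human cells.

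Promoters of 9 of the 10 genes were found in the RefSeq table, all but Lilrb4a, and 5 motifs were searched on both strands. The PU.1 core was in 7 of the 9 (all but Fcgr2b and Fcer1g), and in 28.3% of 27025 promoters of the same length. Those 27025 are the first listed for each gene symbol, leaving out a chromosome that holds none of the 10 genes. The shares of all promoters below refer to this set. GAS matches were in 2 of the 9 (Fcgr1 and Trem1) and in 8.47% of all. The C/EBP motif TTGCNNNAA and the AP-1 motif TGANTCA were each in 1 (Trem2), and in 9.55% and 7.93% of all. The NF-kappaB consensus was in 4 (Fcgr2b, Fcgr3, Fcgr4 and Fcer1g) and in 50.4% of all. A match is only the presence of these letters in the window.

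Between the genotypes, none of the 10 genes had an adjusted p under 0.05 on water, where 31.6% of all genes did, or on DSS, where none of the 21314 genes did (limma). At an unadjusted p under 0.05 the counts were 0 of 10 on water (46.5% of all genes) and 3 of 10 on DSS (2.78%), namely Fcgr3, Fcer1g and Fcgr4, the last of which is there by the choice of genes. The latter count was 7 without wild-type DSS 3 or Parp1-/- DSS 2 and 1 without Parp1-/- DSS 1 or 3. On DSS the difference was below 0 for 9 of the 10, all but Trem2, while 50.4% of all genes had a difference above 0. The median difference on DSS was −0.81 over the 10 genes and 0.00 over all genes. Values of these arrays chose the genes, and several of the 10 vary together, so nothing is read from these counts and medians. On water, the Parp1-/- mice lay wholly below the wild-type mice for Fcgr4, Trem1, Clec4d and Clec4e, as did 29.2% of all genes. On DSS they lay wholly below for Fcgr1 and Fcgr4 (4.52% of all genes) and wholly above for Trem2 (2.04%). The median difference on water was −0.30 against −0.07 for all genes. The response in Parp1-/- minus that in wild type was −2.20 ± 1.07 for Lilrb4a and −0.98 ± 0.59 for Fcer1g, or −3.22 and −1.46 without Parp1-/- DSS 2. For Fcer1g it was −0.56 without wild-type DSS 2, and for Lilrb4a −0.51 after quantile normalization. The high wild-type DSS values of Lilrb4a, which enter its difference, are among those that chose the genes. None of the 10 had an adjusted p under 0.05 for this difference of responses, where 2.54% of all genes did. Its sign for Fcer1g, Trem1, Clec4d and Clec4e turned after quantile normalization, and for these and all 4 Fc gamma receptors it turned with the housekeeping mean subtracted.

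Lilrb4a, Fcer1g, Trem1, Clec4d and Clec4e varied together from array to array. Their 10 pairs had Pearson correlations of 0.82 to 0.98 over the 12 arrays, and of 0.92 to 0.99 over the 8 that remain without the 4 arrays low in housekeeping genes. These points share the division into DSS and water, and mouse 2 of each DSS group lies far from the rest. Fcgr4 correlated with the same 5 genes at 0.44 to 0.66 over 12 arrays and 0.62 to 0.72 over the 8, and Fcgr3 at 0.73 to 0.88 and 0.86 to 0.97. Trem2 correlated at −0.26 to −0.04 over 12 arrays and at 0.17 to 0.37 over the 8. The genes most like Lilrb4a over the 12 arrays were Cd33 (0.96), Igsf6 (0.95), Cxcl2 (0.95) and Plek (0.95). Cd33 and Igsf6 encode immunoglobulin-like membrane proteins of myeloid cells, Cxcl2 a chemokine that attracts neutrophils, and Plek a platelet and leukocyte protein kinase C substrate. Cxcl2 was 2.35, 4.10 and 1.82 in wild-type DSS mice and 0.43, 4.06 and 1.44 in Parp1-/- DSS mice. Over the 8 arrays the closest were Igsf6, Cd33, Ier3 and Mrgpra2a, all at 0.99.

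The genes most like Fcgr4 over 12 arrays were Med7 (0.92), Rnd1 (0.91), Slc7a2 (0.90) and Aoah (0.89). Over the 8 arrays they were Slco6b1 (0.99), Adad1, Ect2l and Gpr65 (each 0.98). In wild-type DSS 2 these genes were 0.16, 0.15, 0.15 and 1.53, in the order named. In the rest of the 8 arrays they reached at most 0.03, 0.01, 0.01 and 0.04. These correlations therefore rest largely on wild-type DSS 2, and on small differences for all but Gpr65. Gpr65, a proton-sensing receptor of leukocytes, was 0.36, 1.14 and 0.94 in wild-type water mice and 0.66, 1.53 and 0.04 in wild-type DSS mice. It was −0.17, −0.30 and −0.26 in Parp1-/- water mice and −0.34, −0.04 and −0.20 in Parp1-/- DSS mice. All 6 wild-type values lay above all 6 Parp1-/- values, as in 1.66% of all genes. Gpr65 was picked for its likeness to Fcgr4, so nothing is read from this division. Slco6b1, Adad1 and Ect2l were divided in the same way. Their nearest wild-type and Parp1-/- values were 0.03 and −0.03, 0.01 and −0.01, and 0.01 and −0.01.

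The levels of myeloid marker lists were set beside the receptors, since the tissue can hold more or fewer of these cells. The mean of 16 of 16 neutrophil markers was −0.30 to −0.11 on water and 0.57, 1.37 and 0.95 on DSS among wild-type mice. Among Parp1-/- mice it was −0.79 to −0.40 on water and −0.05, 0.94 and 0.09 on DSS. Mouse 2 was the highest of both DSS groups, as for most of the 10 receptors. The mean of 16 of 17 macrophage markers was −0.39 to −0.27, 0.10 to 0.48, −0.22 to 0.34 and 0.07 to 0.22 in the same order of groups, with 0.30 in wild-type DSS 2 and 0.21 in Parp1-/- DSS 2. That of 8 of 9 inflammatory monocyte markers was −0.63 to −0.27, −0.16 to 0.85, −0.41 to 0.14 and 0.26 to 0.39. In Parp1-/- DSS 1, which had low receptor values, these 2 means were 0.22 and 0.39. The part of cell numbers in the receptor values was not tested.

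In wild type 7 of the 16 neutrophil markers rose and 1 fell on DSS at an adjusted p under 0.05 (limma; 8.89% and 4.16% of all genes did), with a median of 1.18. Among them were Ly6g, a neutrophil surface protein (3.17 ± 0.86, adjusted p = 0.0345), Lcn2, the siderophore-binding lipocalin (2.59 ± 0.43, 0.00293) and the chemokine receptor gene Cxcr2 (2.11 ± 0.52, 0.0226). Lcn2 is also made by colon epithelium. Of 16 macrophage markers 4 rose and none fell (median 0.55), with Cd14, the lipopolysaccharide co-receptor, at 2.12 ± 0.50 (adjusted p = 0.0180), the lysosomal Cd68 at 1.54 ± 0.26 (0.00346) and the complement gene C1qb at 1.45 ± 0.34 (0.0182). Of 8 monocyte markers Plac8 rose (1.76 ± 0.37, 0.0107), with a median of 0.33. In the same comparison 9 of 16 housekeeping genes rose (median 1.21) and 7 of 11 epithelial genes (median 1.60), and their part in the myeloid values was not tested. The lists were chosen with earlier results of these data known, and the genes named were picked for their change. Their p-values are therefore descriptions. Calls over all genes in wild type went from 2781 to 232 after quantile normalization. No gene of these lists passed the threshold in Parp1-/- mice. There the medians were 0.80, −0.07 and 0.28, with Ly6g at 4.10 ± 0.86 (adjusted p = 0.375), Cd14 at 2.07 ± 0.50 (0.522) and the monocyte marker Ly6c2 at 2.16 ± 0.49 (0.454).

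**Figure D4:**
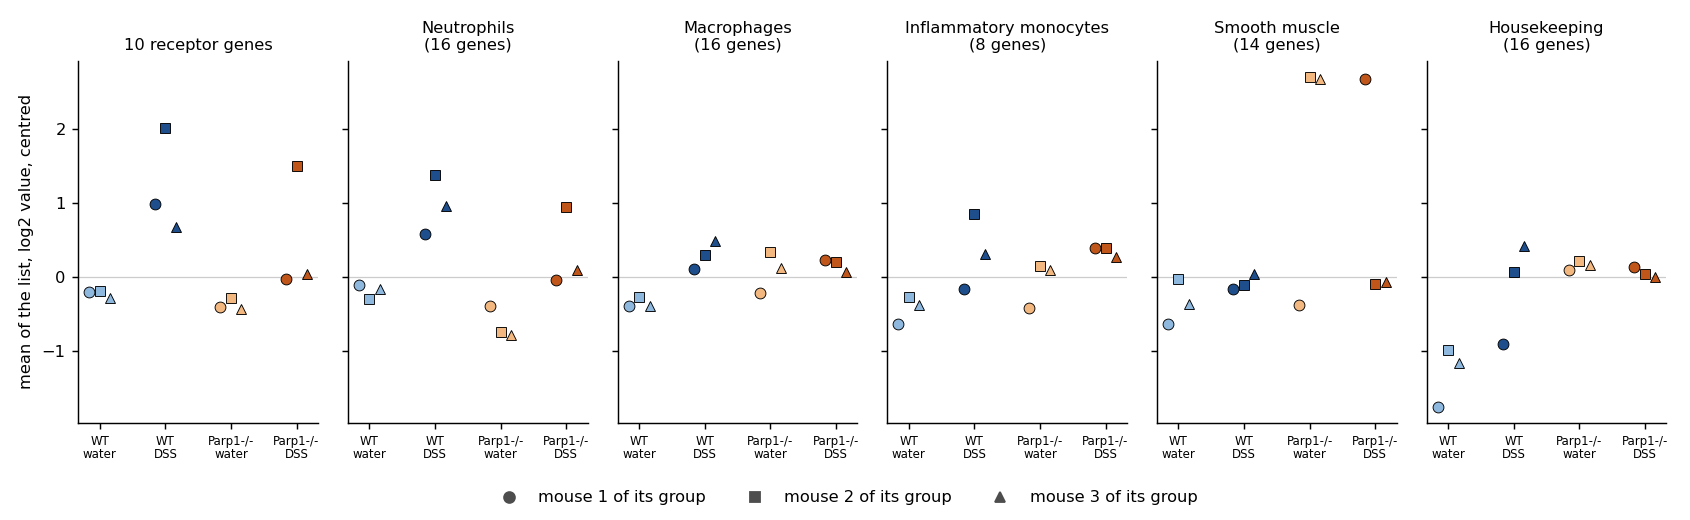
Mean of the centred log2 values of the 10 receptor genes and of 5 marker lists (y axis) in each of the 12 mice (points, with the 4 groups on the x axis). Mouse 2 is the highest DSS mouse for the receptor genes and the neutrophil list in both genotypes, the smooth muscle list is high in 3 Parp1-/- mice, and the housekeeping list is low in the wild-type water mice and wild-type DSS 1.

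Relatives and signalling partners of the receptors were followed through lists, beside the 8.89% of all genes that rose and the 4.16% that fell in wild type. These lists too were chosen with earlier results known, so the p-values of the genes named are descriptions. Of 29 measured ITAM and ITIM signalling genes 2 rose in wild type on DSS and none fell (median 0.36), namely Tyrobp, the adaptor of Trem1 and Trem2 (2.14 ± 0.43, adjusted p = 0.00827), and Ptprc, the CD45 phosphatase of all leukocytes (1.49 ± 0.41, 0.0358). Of 22 paired immunoglobulin-like receptors 2 rose (median 0.06), the inhibitory Pirb (1.26 ± 0.28, 0.0135) and Siglece (1.02 ± 0.29, 0.0401). Of 12 Fc receptor relatives Pigr rose (1.17 ± 0.27, 0.0184), the epithelial transporter of IgA, while the list's median was 0.00. Epithelial markers also differed between these arrays, with means of −1.55 to −1.26 on water and −0.87 to 0.37 on DSS, and their part in the Pigr value was not tested. Of 20 other myeloid C-type lectin receptors none rose and 3 fell (median 0.03), namely Clec10a (−0.82 ± 0.19, 0.0193), Clec4f (−0.75 ± 0.17, 0.0154) and Clec4g (−0.64 ± 0.17, 0.0299), of which Clec10a marks resident macrophages and dendritic cells and Clec4f Kupffer cells of the liver. On water, without DSS, Parp1-/- minus wild type was −0.77 for Clec10a and −0.84 for Clec4f. The part that the wild-type arrays that stood apart had in these falls was not tested. No TREM relative among 4 changed, with Trem3, which lies in the Trem1 cluster, at 1.06 ± 0.46 (adjusted p = 0.144).

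None of these relatives passed the threshold in Parp1-/- mice (limma, adjusted p over all genes). The medians there were 0.14 for the signalling genes, −0.01 for the paired receptors, 0.10 for the Fc relatives, 0.03 for the C-type lectins and 0.21 for the TREM relatives. Among them Syk, the kinase that docks on the ITAM, was 0.85 ± 0.30 higher on DSS, the Src-family kinase gene Fgr 0.73 ± 0.31 and Cd300lf 0.53 ± 0.19, with unadjusted p of 0.0160, 0.0401 and 0.0159. The beta-glucan receptor gene Clec7a had 0.69 ± 0.47, Trem3 0.88 ± 0.46 and Siglece 0.59 ± 0.29.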

How the data were processed

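Whole-colon RNA of 12 mice was biotin-labelled for Affymetrix arrays, per the labels' protocols. The authors' deposited values, of 31693 probe sets on 12 arrays, were taken as log2 values, and the sources used here do not say how they were made. They ran from −4.83 to 5.47, with a median of 0 (to within 5e-07) for every probe set. Centring follows from the values, but log base and direction are unknown; base 2 and more RNA at larger values were assumed. Column medians were 0.0576, 0.0999 and 0.0946 (wild-type water 1 to 3), 0.0784, 0.000299 and −0.00104 (wild-type DSS), −0.00315, −0.0310 and −0.0438 (Parp1-/- water) and 0.000797, −0.0204 and −0.00781 (Parp1-/- DSS). Arrays have no counting depth; 3 per group limit the precision. Signal over background is unknown.

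GEO's platform annotation gave 22586 probe sets with 1 gene symbol, 1756 with several and 7351 with none; the first were averaged per gene (21314 genes, of which 20283 had 1 probe set). Groups came from genotype and treatment labels; mouse numbers only name animals. A model of the 4 groups was fitted with limma 3.58.1 (lmFit, eBayes; R 4.3.3), with Benjamini-Hochberg adjustment over all genes and a threshold of 0.05, and was tested on simulated data: for DSS against water in Parp1-/- it recovered 22 of 50 genes changed by 1 on the log2 scale and 46 of 50 changed by 2, with 17 false calls. The simulated noise was normal and independent between genes and arrays, with each gene's own residual spread. It held no differences between whole arrays, so it does not give the rate of recovery in the real arrays. The members and gene lists were chosen with earlier results of these data known. From each list up to 3 called genes of largest change were named, or otherwise the 2 of smallest p; for Lilrb4a and Fcgr4 the 4 best correlated genes, leaving out predicted models, small RNAs, olfactory and vomeronasal receptors and immune receptor segments. Alternatives were quantile normalization, equal array medians, subtraction of the housekeeping mean, array weights, the trend and robust options of eBayes, a fit of only the compared groups, and leaving out arrays. Python 3.11.15, pandas 2.3.3 and matplotlib 3.10.9 were used.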

Additional observations from a re-analysis of the deposited data

Results flagged for a closer look

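Trem2 went in opposite directions with DSS in the 2 genotypes. Every wild-type DSS mouse lay below the mean of the wild-type water mice (0.16), and every Parp1-/- DSS mouse above the mean of the Parp1-/- water mice (−0.22). Trem2 was flagged for this pattern, so nothing is read from it. The wild-type groups overlapped, with 0.01 in DSS 3 and −0.02 in water 1. All wild-type water arrays are among those that stood apart. The response in Parp1-/- minus that in wild type was 0.83 on the log2 scale. The opposite direction over mice was not tested, and limma's fit of the difference of responses did not pass the threshold after adjustment over all genes.

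A probe set that the annotation gives to both Lilr4b and Lilrb4a stood outside the 10 genes, which were taken from probe sets with a single symbol. It was −0.03, 0.00 and 0.00 in wild-type water mice and 1.48, 2.57 and 0.52 in wild-type DSS mice, a difference of 1.54. In Parp1-/- mice it was −0.65, −0.48 and −0.34 on water and −0.19, 2.31 and 0.34 on DSS, a difference of 1.31. DSS mice lay above water mice in both genotypes, and mouse 2 was the highest of each DSS group, as for the Lilrb4a probe set itself. The 2 genotypes differed little in the response of the shared probe set (1.54 and 1.31). For the Lilrb4a probe set, the response in Parp1-/- minus that in wild type was −2.20. The water means were also in the opposite order. They were −0.01 in wild type and −0.49 in Parp1-/- for the shared probe set, against −1.44 and −0.64 for the Lilrb4a probe set. The reason for this disagreement was not tested.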

How the results depend on the processing

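The number of the 10 genes with an adjusted p under 0.05 was recomputed under each alternative. In wild type, DSS against water gave 3, then 0 after quantile normalization, 9 with array weights, 4 with the housekeeping mean subtracted (Fcgr3 lost, Fcgr1 and Trem2 lower), 2 with only the groups compared or without the 3 muscle-rich arrays (Fcgr3 lost), and 3 to 5 when single mice were left out (5 without wild-type DSS 1). In Parp1-/- it gave 0, then 2 with array weights (Fcgr3 and Fcer1g), and 0 whichever mouse was left out. Between genotypes on water 0 became 9 with the housekeeping mean subtracted (all but Lilrb4a) and 3 with only the groups compared, and on DSS 0 became 10 with array weights. The difference of responses went from 0 to 1 with the housekeeping mean subtracted (Trem2) and to 5 with array weights. The weights' estimation stopped before it converged and gave wild-type DSS 2 a weight of 963.9, against 0.0773 to 2.80 for the other arrays. Subtracting the housekeeping mean moved the median of all genes from −0.05 to −1.21 in wild-type DSS against water, from −0.07 to −1.53 between genotypes on water, from 0.00 to −0.19 on DSS and from 0.05 to 1.31 for the difference of responses. With DSS, signs turned in wild type, housekeeping mean subtracted, for Fcgr3 (−0.36), Fcgr1 (−1.03), Fcgr2b (−0.23) and Fcgr4 (−0.42), and for Fcgr1 without wild-type water 1 (−0.016) or DSS 2 (−0.014). They turned for Fcgr1 in Parp1-/- (0.038, housekeeping, and −0.11 to 0.023 with single mice left out, turning without Parp1-/- DSS 3) and for Fcgr2b in Parp1-/- (−0.16 to 0.47 with single mice left out, turning without Parp1-/- DSS 2). The causes were not tested. Over all genes, calls in wild type went from 2781 to 232 after quantile normalization, 641 with only the groups compared and 8772 with array weights, and in Parp1-/- from 2 to 85, 9 and 1457. Leaving out both DSS mice 2, chosen after seeing the data, gave 3 of the 10 genes in wild type (Lilrb4a, Fcer1g and Clec4e, with Fcgr3 lost) and 0 in Parp1-/-. Without the 4 arrays that stood apart, wild-type DSS against water, the genotypes on water and the difference of responses could not be formed. No paired analysis was possible because each mouse's number in the labels is its own. With 3 mice per group, centred values and no signal over background, small differences and probe sets near background cannot be judged.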

Other observations

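Lists of other cell types were followed in the same way, first in wild-type mice on DSS, where 8.89% of all genes rose and 4.16% fell. They were also chosen with earlier results known, so the p-values of the genes named are descriptions. Of 11 mast cell genes the tryptase Tpsb2 fell (−0.69 ± 0.15, limma adjusted p = 0.0128) and the protease Mcpt2 of mucosal mast cells rose (0.65 ± 0.20, 0.0493), and the list's median was −0.18. Of 11 T and NK cell genes 1 rose, Cd3e (1.24 ± 0.31, 0.0242), and 1 fell, Cd3d (−0.66 ± 0.18, 0.0364), although both encode chains of the same receptor complex. No gene among 8 dendritic cell and 10 B and plasma cell genes passed the threshold, with medians of 0.08 and −0.14. Of 11 epithelial genes 7 rose (median 1.60), with Epcam at 1.74 ± 0.17 (0.000120), Krt20 at 1.74 ± 0.18 (0.000164) and Vil1 at 1.83 ± 0.43 (0.0192), and of 16 housekeeping genes 9 rose (median 1.21). None of 14 smooth muscle genes passed (median 0.17). On water, without DSS, Parp1-/- minus wild type was −0.78 for Tpsb2, −0.89 for Cd3d, 2.06 for Epcam and 2.52 for Vil1. The part that the wild-type arrays that stood apart had in these DSS differences was not tested.

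No gene of these lists passed the threshold in Parp1-/- mice on DSS. The medians were 0.03 for mast cells, 0.08 for T and NK cells, −0.02 for dendritic cells, 0.10 for B and plasma cells, −0.03 for epithelium, −0.05 for housekeeping and −0.88 for smooth muscle genes. Jchain, the joining chain of secreted IgA and IgM, was lower by the widest margin among the B and plasma cell genes (−1.73 ± 0.62, unadjusted p = 0.0168).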
